A study of Caenorhabditis elegans with 2 samples.

Results

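ztf-11 (WBGene00009939) encodes the transcription factor whose binding was mapped here, and the regions called over the gene and its surroundings were followed through every list of the study. Chromatin immunoprecipitation with sequencing (ChIP-seq) was done with an antibody against GFP on whole hermaphrodite Caenorhabditis elegans at the first larval stage (L1). They had been bleached and synchronized by starvation, and were taken 6 hours later. The worms were of strain OP511, genotype unc-119(tm4063) III; wgIs511, and carried an integrated transgene for ZTF-11 with a GFP and FLAG tag at its C terminus. Both biological replicates belong to 1 group, and the study has no second condition to set it against. The labels used here give neither the promoter that drives the transgene nor its copy number. Sequence shared by the transgene and the gene at its own place cannot be told apart in these lists.

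ZTF-11 is the worm member of the MYT1 family, zinc-finger proteins known in vertebrates for holding neurons to their fate by repressing genes of other cell types. In C. elegans ZTF-11 is known to promote neurogenesis, and it has been linked to the MuvB repressor complex. Transcription factors often have binding sites at their own genes, so the gene of a tagged factor is a common first place to look in a ChIP-seq experiment. In worms made with a tagged transgene the same sequence is also the one that was added to the genome.

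The gene lies on chromosome I of ce11 from 9904303 to 9910545 on the minus strand, and its midpoint is at 9907424. A region belonged to the surroundings where its summit lay within 50 kb of that midpoint. By this rule 10 of the 1875 regions that the authors kept at their irreproducible discovery rate (IDR) threshold were members. So were 62 of the 30000 regions called on both replicates pooled, 62 of 30000 in replicate 1 and 63 of 30000 in replicate 2. Each list of 30000 includes background by its authors' description. Signal is a score of the peak caller, and whether its scale is the same in each list is not given. Levels are therefore compared by rank within a list, where 1 is the highest. At the edge of the window the last pooled summits inside lay 48.6 and 48.2 kb from the midpoint, ranked 11423 and 29861, and the first outside lay 50.4 and 51.9 kb away, ranked 8420 and 997.

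The space around ztf-11 held more summits than the genome on average, in each of the lists. The pooled list had 6.20 summits per 10 kb in the window, against 2.99 per 10 kb over the 6 nuclear chromosomes, a ratio of 2.07. The ratio was 2.07 in replicate 1, 2.11 in replicate 2 and 5.35 in the IDR list. The lists give no read depth, and no control reads were analysed here, so the precision of single regions rests on the 2 replicates.

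**Figure D1:**
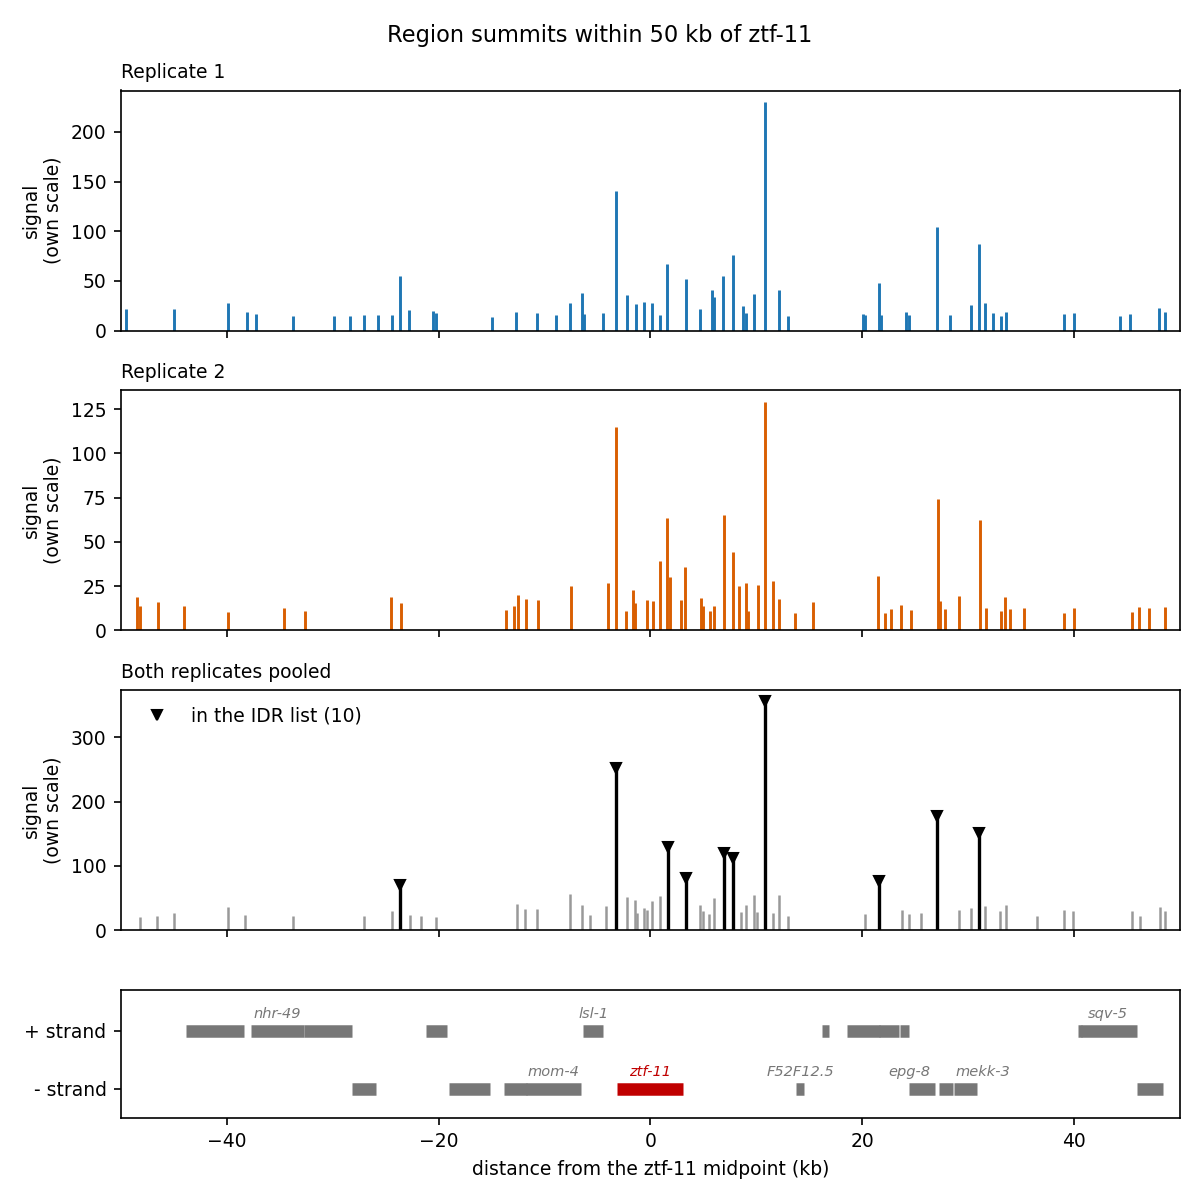
Signal of every region with a summit within 50 kb of the ztf-11 midpoint (x axis, kb) in replicate 1, replicate 2 and the pooled list, each on its own linear signal scale, above the coding genes whose 5' end lies in the window, with ztf-11 in red. The 10 pooled regions of the IDR list carry triangles, and in all 3 panels the tallest line stands upstream of ztf-11. It lies 10841 bp from the midpoint in replicate 1, 10828 bp in replicate 2 and 10860 bp in the pooled list.

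The strongest region of the surroundings lay upstream of ztf-11, far from any annotated coding start. Its summit was at 9918284, in the space between ztf-11 and F52F12.5, 7739 bp upstream of the 5' end of ztf-11. Its signal was 230.2 in replicate 1, where it ranked 113, and 129 in replicate 2, where it ranked 125. In the pooled list it ranked 117 with a signal of 356. This region was in the top 1875 of each list and stood at nearly the same place in all of them. The nearest coding 5' end was that of F52F12.5, 3646 bp away.

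The region that ranked next lay at the other end of the gene, just past the annotated 3' end. Its summit at 9904213 was 90 bp beyond that end and 185 bp from the stop codon, where a C-terminal tag joins the protein. It ranked 321 in replicate 1 (signal 140.2), 161 in replicate 2 (signal 115.2) and 266 in the pooled list (signal 252). The nearest coding 5' end was that of lsl-1, a zinc-finger gene, 3137 bp away, so this region stood closer to the end of ztf-11 than to the start of any coding gene.

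The annotated start of ztf-11 had a weaker region, and the first intron a somewhat stronger one. The region upstream of the 5' end had its summit at 9910762, 217 bp from that end, and ranked 1414 in replicate 1 (signal 51.7), 1138 in replicate 2 (signal 35.8) and 1370 in the pooled list (signal 81.2). The region in the first intron had its summit at 9909047, which is 1498 bp downstream of the 5' end and 1392 bp upstream of the start of a shorter transcript. It ranked 948 in replicate 1 (signal 67.1), 465 in replicate 2 (signal 63.5) and 713 in the pooled list (signal 130). In both replicates the start of ztf-11 ranked below the intron, the far upstream and the 3' regions.

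A pair of regions stood between the start and the strongest region. The one at 9914363, 3818 bp upstream of ztf-11, lay on the overlapping non-coding genes F52F12.15 and F52F12.16 and ranked 1288 in replicate 1, 440 in replicate 2 and 787 in the pooled list. The one at 9915212, 4667 bp upstream, ranked 805 in replicate 1, 812 in replicate 2 and 872 in the pooled list. Annotated non-coding genes on opposite strands overlap here, and these lists carry no strand, so the region cannot be given to one of them.

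**Figure D2:**
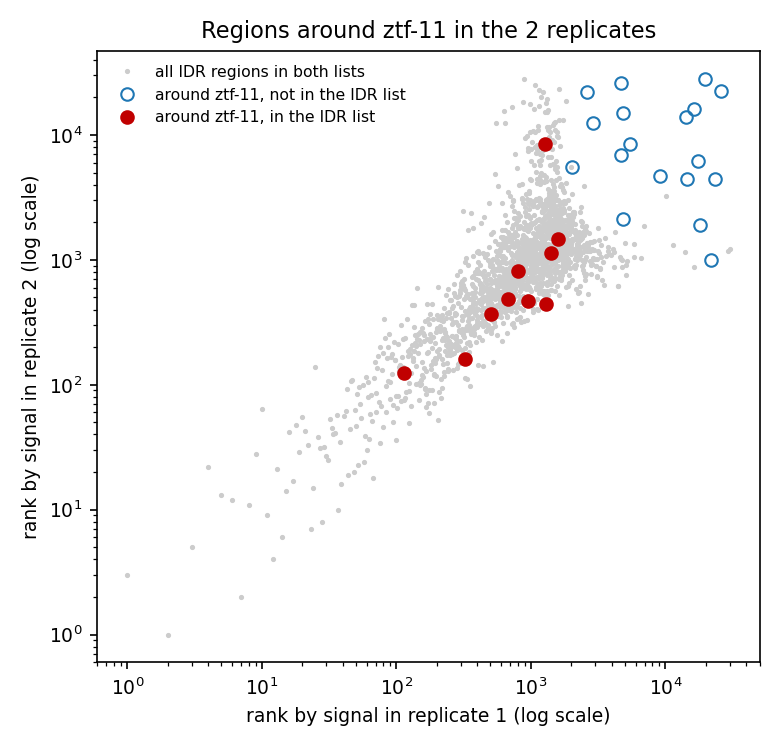
Rank by signal in replicate 1 (x axis) against replicate 2 (y axis), both on log scales, for the 28 regions around ztf-11 matched in both lists (red where in the IDR list, blue rings where not) and for the 1783 IDR regions of the genome matched in both (grey). Of the 10 IDR regions around ztf-11, 9 rank in the top 1875 of both replicates. The widest apart of these ranks 1288 in replicate 1 and 440 in replicate 2. The tenth, on a tRNA gene, ranks 1272 in replicate 1 and 8412 in replicate 2.

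The remaining 4 IDR regions of the window lay at other genes. One covered an annotated tRNA gene (WBGene00014533) with its summit at 9883756, ranked 1728 in the pooled list, 1272 in replicate 1 and 8412 in replicate 2, and was the one IDR region on the downstream side of the gene beyond its neighbours. The other 3 lay beyond F52F12.5, each just upstream of a coding 5' end. The region at epg-8, an autophagy gene, had its summit 242 bp upstream and ranked 427 in the pooled list, 507 in replicate 1 and 366 in replicate 2. The region at mekk-3 lay 163 bp upstream and ranked 571, with 680 and 483 in replicates 1 and 2. The region at strl-1 lay 17 bp upstream, also in the 3' UTR of F52F12.9, and ranked 1532, with 1594 and 1478 in replicates 1 and 2.

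Of the 21 coding genes with a 5' end in the window, 4 had an IDR summit within 1000 bp of it: ztf-11, strl-1, epg-8 and mekk-3. Over all 19973 coding genes the share was 8.09%, and in the window it was 19.0%. The 17 others had none, among them the direct neighbours of ztf-11. These were lsl-1, F52F12.5 and, past lsl-1, mom-4, a kinase gene of the Wnt pathway. nhr-49, a nuclear receptor gene of fat metabolism, and sqv-5, a chondroitin synthase gene, also had none. In the full pooled list 14 of the 21 had a summit within 1000 bp (66.7%), against 50.4% of all coding genes. Among the genes without an IDR summit the best ranks were 2344 at mom-4, 4549 at col-64, a collagen gene, and 4982 at lsl-1.

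Regions were packed more closely over ztf-11 and the spaces on both sides of it than in the rest of the window. The gene body of 6.24 kb held 8 pooled summits, 6 in replicate 1 and 9 in replicate 2. That is 12.8, 9.61 and 14.4 per 10 kb, and by this density ztf-11 placed 5, 26 and 2 among the 3233 coding gene bodies of at least 5 kb, whose median was 2.89, 2.92 and 2.93 per 10 kb. With its 1 IDR summit the gene body placed 60 in the IDR list. Of the 8 pooled summits 5 lay in introns and 3 in coding exons, and their signals spanned 26.7 to 130, with a median of 45.8.

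The space of 10.7 kb upstream held 15 pooled summits, 12 in replicate 1 and 15 in replicate 2. Among the 2089 spaces of at least 5 kb between coding genes it placed 3, 5 and 1 by summits per 10 kb, at 14.1, 11.3 and 14.1, against medians of 2.30, 2.33 and 2.49. With its 4 IDR summits it placed 6 in the IDR list. The space of 1.35 kb downstream, before lsl-1, held 2 pooled summits, and 2 in each replicate, which is 14.8 per 10 kb in each of these lists but rests on 2 summits. The gene and both spaces together span 18.3 kb with 25 pooled summits, at 13.7 per 10 kb, while the remaining 81.7 kb of the window had 37, at 4.53 per 10 kb.

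These closely packed regions were also of higher rank. Of the 25 pooled regions over the gene and its 2 spaces, 17 (68.0%) were among the 7500 of highest signal, which make up 25% of the list. In the rest of the window this was 12 of 37 (32.4%). The median pooled rank was 3608 over the gene and its spaces and 11661 in the rest of the window.

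**Figure D3:**
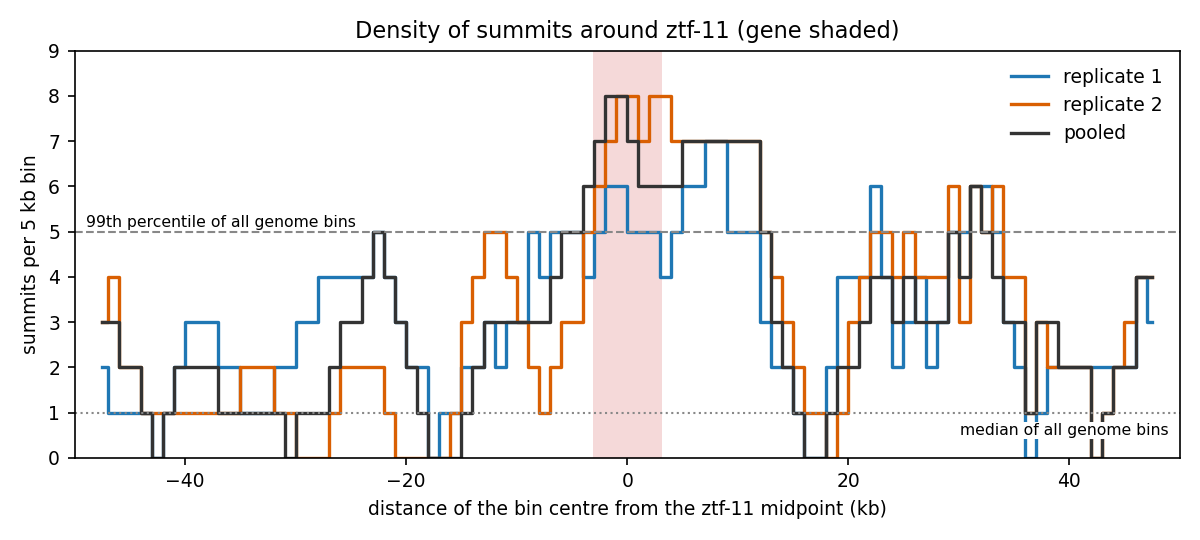
Number of summits in bins of 5 kb, moved in steps of 1 kb (y axis), by distance of the bin centre from the ztf-11 midpoint (x axis, kb) in the 3 lists, with the gene shaded. The pooled list reaches 8 summits, replicate 1 reaches 7 and replicate 2 reaches 8; dashed and dotted lines give the 99th percentile (5) and median (1) of all pooled bins of the genome.

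How far the dense stretch reached depended on how it was drawn. With neighbouring pooled summits no more than 1000 bp apart, it ran from 9904213 to 9909047, 4.84 kb with 9 summits, and covered ztf-11 alone among coding genes. Among the 1356 such chains of at least 3 summits it placed 6 by number of summits and 9 by length. In single replicates the chain with the most summits that overlapped ztf-11 was shorter and placed lower, and the 2 replicates gave different stretches. In replicate 1 it ran from 9905174 to 9908956 with 6 summits (places 27 and 23). In replicate 2 it ran from 9903378, past the 3' end, to 9905969 with 5 summits (places 50 and 100). The 2 overlap only in part. The pooled chain with the most summits of the genome lay next to the pooled chain over ztf-11. It was in the upstream space, from 9912095 to 9920430 with 14 summits and 3 IDR regions. With steps of up to 2000 bp the pooled chain over ztf-11 ran from 9899828 to 9920430. It spanned 20.6 kb with 28 summits and 6 IDR regions over mom-4, lsl-1, ztf-11 and the upstream space. It was then the longest of 3244 chains and held the most summits. Bins of 5 kb at or above the 99th percentile of the genome gave 9901001 to 9922000, or 21.0 kb. In replicate 1 and replicate 2 alone these bins gave 23.0 and 22.0 kb.

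In each list the longest space without a summit was taken on each side of ztf-11 in the window. These spaces were looked for after the values had been seen, and the longest of many spaces is long by the way it is picked. Whether they are longer than around other genes was not tested. In the pooled list they ran from 9887151 to 9894836 (7.69 kb) and from 9920430 to 9927678 (7.25 kb), and 31 summits lay in the 25.6 kb between them. Another long pooled space ran from 9873655 to 9880339, farther from the gene. Spaces of at least 7.25 kb made up 10.95% of all spaces between neighbouring pooled summits, whose median was 2.08 kb. For the shorter space of each replicate this share was 18.2% in replicate 1 and 14.4% in replicate 2. In replicate 1 the longest spaces in the window on each side were 5.33 and 7.03 kb, with 27 summits in the 28.0 kb between them. In replicate 2 they were 9.89 and 6.18 kb, with 33 summits in 29.0 kb. On the upstream side the last summit before the space lay at 9920430 in both the pooled list and replicate 1, and at 9922750 in replicate 2. In the pooled list that summit was also the last of the 20.6 kb stretch. The 21.0 kb from bins ended inside the space.

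**Figure D4:**
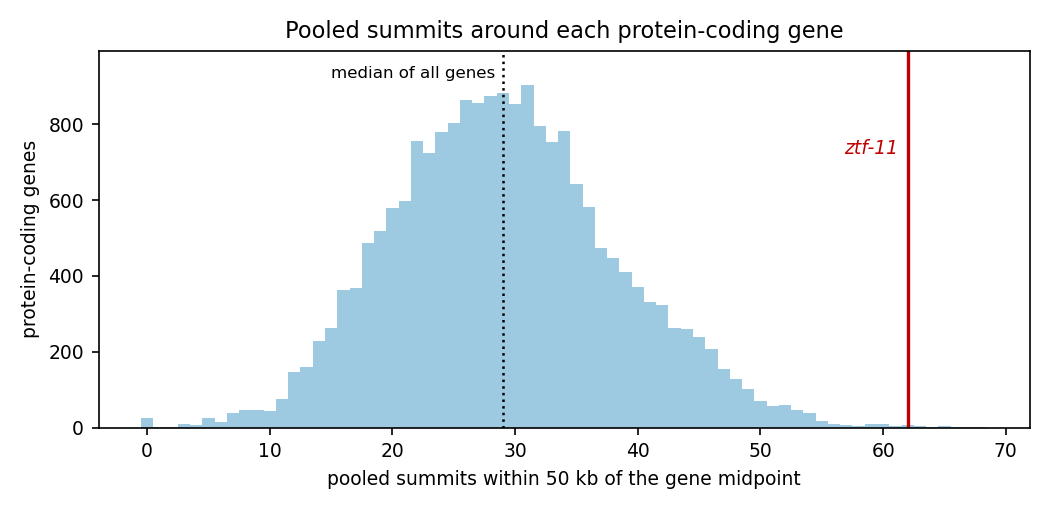
Distribution over the 19973 coding genes (y axis, genes per value) of the number of pooled summits within 50 kb of the gene midpoint (x axis). The red line marks ztf-11 at 62 and the dotted line the median of 29.

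Set against all coding genes, ztf-11 stood at the upper end for summits close by, and less far out for wide windows. Within 10 kb of the gene midpoint it had 23 pooled summits, a number reached by 1 other gene, ubql-1, and passed by none, with a median of 6 over all genes. Replicate 1 had 21 (place 3, shared with 4 other genes) and replicate 2 had 22 (place 1, shared with unc-62). Within 50 kb the 62 pooled summits placed it 18, against a median of 29 and quartiles of 23 and 35, and within 100 kb the 94 placed it 218, against a median of 58. On chromosome I alone, with a median of 33, its place within 50 kb was 14 of 2878.

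Of the 17 genes with more pooled summits within 50 kb, 13 lay within 100 kb of ztf-11, so that their windows share regions with its own. The highest, T24D1.7, had 68 and lay 40.7 kb away. The other 4 were on chromosome III: gtf-2A2 and aqp-11 with 65 each, and epc-1 and Y111B2A.12 with 63 each. Among the 6 other genes with the same count of 62 were plin-1, gldi-8, flp-15 and dyf-2. Their windows held 8, 6, 5 and 4 IDR regions, against 10 at ztf-11. By number of IDR regions within 50 kb ztf-11 placed 46, with 19 other genes at the same number and a median of 1.

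Regions around ztf-11 were found in both replicates more often than pooled regions at large. Of the 62 pooled regions, 28 (45.2%, exact Clopper-Pearson 95% interval 32.5 to 58.3) had a summit of both replicates within 100 bp, against 27.3% of all 30000. Replicate 1 matched 41 (66.1%), against 64.2% of all, and replicate 2 matched 38 (61.3%), against 49.5% of all. In 11 (17.7%) neither replicate had a match, also a higher share than the 13.5% of all. All 10 IDR regions were matched in both, but IDR regions were picked by agreement of the replicates. Their share of the window was 10 of 62 (16.1%), against 6.25% of the whole pooled list. Among the 52 other regions 18 (34.6%, 22.0 to 49.1) were matched in both. The share of the 28125 such regions of the genome was 22.7%, which lies inside that interval. Regions around ztf-11 also ranked higher: 46.8% were among the 7500 of highest signal, against 25% of all. Outside the IDR list these shares were 36.5% and 20%. Regions of like rank were not compared, so whether the matched share is higher at equal rank was not tested. A summit also has a replicate summit within 100 bp more easily where summits are dense. The window had 6.20 summits per 10 kb in replicate 1 and 6.30 in replicate 2, against 2.99 over the genome in each. Whether the matched share is higher at equal density was not tested either. The intervals cover counting error only, and regions within one stretch are not independent of each other.

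Over the gene and its 2 spaces 14 of 25 regions (56.0%, 34.9 to 75.6) were matched in both replicates, against 14 of 37 (37.8%, 22.5 to 55.2) in the rest of the window. These intervals overlap widely. Across the 28 regions matched in both, Spearman's rho of the 2 signals was 0.60, and it was 0.60 across the 8175 such pooled regions of the genome. These points share 2 libraries and 1 control, and the value has no p.

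Base composition at the summits was compared with that of the whole lists. In windows of 101 bp centred on the summit, G and C made up 45.7% ± 6.38 (SD, 10 windows) at the IDR regions around ztf-11, against 48.9% ± 7.87 (SD, 1875 windows) over the whole list. For the pooled regions it was 38.6% ± 8.10 (SD, 62 windows), against 40.3% ± 9.72 (SD, 30000 windows). The motif AAGTT, the core known for MYT1 proteins, was found on either strand in 2 of the 10 IDR windows, against 13.2% of all IDR windows. These 2 were the region in the first intron and the region at the 5' end. GAGAGA was found in 1, the region past the 3' end, against 23.8% of all. GGCGGG was found in 1, the strongest region upstream, against 7.73%, and CTGCGTCT in none, against 8.75%. Among pooled windows AAGTT was found in 17 of 62 around ztf-11 (27.4%), against 27.7% of all 30000, so over the whole lists it was rarer in IDR windows. IDR windows were also richer in G and C over the whole lists (48.9% against 40.3%). Windows of like composition were not compared, so whether AAGTT is rarer at equal composition was not tested. The 4 motifs do not contain each other, and a match says only that these letters lie in the window.

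The surroundings of unc-119, the gene mutated in the strain, held fewer regions in each list than those of ztf-11, but more than those of most coding genes. unc-119 (WBGene00006843, chromosome III, 10902641 to 10908935) encodes a protein of the nervous system, and its mutant phenotype is commonly used to select transgenic worms. Within 50 kb of its midpoint lay 49 pooled summits, 42 in replicate 1, 40 in replicate 2 and 4 in the IDR list, against 62, 62, 63 and 10 around ztf-11. Over all coding genes the upper quartile was 35 in the pooled list and in each replicate, and 3 in the IDR list. Its gene body held 4 pooled summits, 6.35 per 10 kb, against 12.8 for ztf-11, while each gene body held 1 IDR summit. The median of coding gene bodies of at least 5 kb was 2.89 per 10 kb in the pooled list. The IDR summit nearest to its 5' end lay 2741 bp inside the gene and ranked 1374. The highest-ranked pooled region of its window ranked 362. Whether these 2 places differ beyond what separates any 2 genes was not tested.

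Genes related to ztf-11 by name or by known role were looked up for an IDR summit within 1000 bp of the 5' end. Of the 25 coding genes named ztf, 2 did (8%, against 8.09% of all coding genes): ztf-11 and ztf-7, whose summit 310 bp upstream ranked 231. ztf-11 is the one of the 2 with the weaker region at its start. Of 8 MuvB and DREAM genes, whose products form repressor complexes of cell-cycle and germline genes, 5 did (62.5%, against 8.09%). In order of rank they were lin-54 (63), the retinoblastoma homolog lin-35 (94), lin-53 (167), lin-9 (183) and the E2F gene efl-1 (595), and each ranked above the start of ztf-11.

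Of 14 genes known in neurogenesis or in the change of the Y cell into the PDA neuron, 1 did, the proneural gene lin-32 (rank 666). The list held sox-2, ceh-6, egl-27, sem-4 and hlh-3, which had none. Of 7 genes for corepressors known to work with vertebrate MYT1 proteins, 2 did: rcor-1, a CoREST homolog (rank 338), and unc-37, a Groucho homolog (rank 1118). The share was 7.14% in the neurogenesis list and 28.6% in the corepressor list, against 8.09% of all coding genes. The shares of the ztf and neurogenesis lists are thus near that of all genes, and the corepressor share rests on 2 genes.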

How the data were processed

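The 4 lists on ce11 were used: each replicate, both replicates pooled, and the IDR list. Per the text deposited beside each sample, the authors called regions from aligned reads of 1 replicate, or of both pooled, against those of a control, and made the IDR list out of the other 3 lists. Which caller, aligner and IDR threshold they used is not given in the sources used here. Signal, as deposited by the authors, is a score of the caller. The same lists on ce10 were not used.

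Summits are the region start plus the deposited offset, counted from 1. Genes came from Ensembl 115 (WBcel235, the assembly of ce11) and sequence for composition from RefSeq's copy of it. No bases are printed for this chromosome. A summit within 100 bp counted as a match. Named genes were ztf-11, coding genes of the window with an IDR summit or over the stretch, genes next in order by summits, unc-119 and list members with a summit. Genes outside this rule, such as neighbours without a region, were named after their values were seen. The members, lists and settings were chosen with earlier results of these data known. Counting, matching and chaining were tested on simulated summits (Python 3.11.15, pandas 2.3.3, scipy 1.17.1). There is no test between samples, since 1 group was labelled.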

Additional observations from a re-analysis of the deposited data

How the results depend on the processing

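Of 48 alternatives for 10 results, 33 left the value within 1.5 times of that reported, or, for the matched share, within its interval. The count of pooled regions around ztf-11 was 40 within 25 kb, 94 within 100 kb and 29 among the 7500 of highest signal, against 62 of 30000 within 50 kb. Another window width or a shorter list changes this count by itself, so these values do not show whether the excess over the genome holds. The share matched in both replicates was 24.2% at 50 bp, 62.9% for any overlap and 65.1% among the 15000 regions of highest signal, against 45.2%. The share over all pooled regions was not computed under these settings, so whether the window stays above it there was not tested. The dense stretch was 2.31 kb with steps of up to 750 bp, 20.6 kb with 2000 bp and 21.0 kb from bins, against 4.84 kb. It was 2.59 kb without replicate 1 and 3.78 kb without replicate 2, but these are different stretches that overlap only in part. With steps of 500 bp no chain of 3 summits overlapped the gene, so there is no value. The place of ztf-11 was 1 within 10 kb, 3 within 25 kb, 218 within 100 kb and 46 in the IDR list, against 18. Within 2000 bp of the 5' end 5 of the 25 ztf genes had an IDR summit, against 2 within 1000 bp. The 4 coding genes of the window with an IDR summit numbered 4 or 5 under all their alternatives. The share of all coding genes was not computed under these alternatives, so neither count can be set against it. No paired analysis was possible because the labels give 1 group. Read depth is unknown, and 2 replicates limit what single regions can show.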
